A study of Mus musculus with 21 samples.

Results

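The genes described here are those that moved the same way in AGRP and in POMC neurons when mice went without food for 24 hr. RNA-Seq counts of all 21 libraries were fitted with a single additive model of cell type and feeding state, the feeding state term was tested for each gene, and a gene was kept if its mean level changed in the same direction in both cell types. Of 16513 genes tested, 7898 (47.8%) had the same direction of mean change in both cell types, and 289 of these passed the test of the feeding state term. Each library came from 1 male C57BL/6J mouse aged 46 to 56 days, and the mice had been put in individual cages for the last day. AGRP neurons were picked by hand from the arcuate nucleus of NPY-hrGFP reporter mice (5 fed, 6 food-deprived, FD), and POMC neurons from Pomc-GFP reporter mice (5 fed, 5 FD). Fed mice had chow throughout and FD mice had only water for the last 24 hr. The reporter marks the cell type through the *Npy* promoter in one line and the *Pomc* promoter in the other, so cell type and mouse line cannot be told apart, whereas fed and FD mice of a cell type came from the same line.

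AGRP neurons release the melanocortin antagonist AGRP, neuropeptide Y and GABA and promote feeding, while POMC neurons release melanocortin agonists and restrain it. Food deprivation lowers leptin and insulin and raises ghrelin and corticosterone, and both cell types carry receptors for several of these hormones. Corticosterone acts through the glucocorticoid receptor, a nuclear receptor that is held by heat shock protein chaperones, moves to the nucleus when it binds hormone, and acts at paired AGAACA hexamers or through other factors on DNA. *Fkbp5* encodes a chaperone of that receptor that lowers its affinity for hormone, and *Zbtb16* encodes the zinc finger repressor PLZF. Both are widely used as readouts of glucocorticoid action.

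Libraries held 9822298 to 37663979 reads counted on genes (median 19189780), so the floor of 3 counts lay between 0.0912 and 0.295 normalized CPM, the unit of gene levels below (reads of a gene relative to the TMM-scaled library). Each library pooled 44 to 214 sorted neurons (median 95), so fewer cells with a transcript and less of it per cell cannot be told apart. The floor covers counting error alone, because amplified reads without molecular identifiers are not independent molecules. *Agrp* averaged 812 and 3434 normalized CPM in fed and FD AGRP libraries against 3.96 and 11.2 in POMC libraries, and *Pomc* averaged 5348 and 3224 in fed and FD POMC libraries against 12.6 and 11.3 in AGRP libraries, so both labels matched their defining markers. None of the 11 tested markers of astrocytes, oligodendrocytes, microglia, endothelial cells, tanycytes and ependymal cells, of 20 listed, passed the test of the feeding state term in edgeR (3 at an unadjusted p under 0.05, 1 by DESeq2 and 1 by limma-voom), and the astrocyte gene *Aldh1l1* rose in AGRP neurons (0.0312 to 2.26 normalized CPM, q = 0.0284). The oligodendrocyte list had a summed level of 16.0 to 47.8 TPM over all libraries, and the other 4 lists summed to 0 to 43.2 TPM. Spike-in transcripts had been added in 3 volume sets, and in POMC neurons fed mice alone were in the cell-number set and FD mice alone in the 10 µl set, so that only the 1 µl set (3 fed, 3 FD) compares the feeding states within a set.

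By the common term 179 genes rose and 110 fell in FD mice with their means moving the same way in both cell types. Over all genes, 291 (1.76%) passed the feeding state (common) term at an adjusted p (q) under 0.05 in edgeR's quasi-likelihood test, 289 (1.75%) with the same direction in both cell types (1.08% up and 0.666% down) and 2 with opposite mean changes. The additive term and the direction of the means are computed from the same counts, so few opposite calls are built into the rule. The 289 genes ran from a log2 change of 0.32 to 6.52 in size. Among the rising genes the median log2 change was 1.22 in AGRP and 0.52 in POMC neurons, and among the falling genes −1.47 and −0.70, beside −0.02 in each cell type over all genes tested. The change was larger in AGRP neurons for 230 of the 289 genes, and the median ratio of the POMC to the AGRP log2 change was 0.50.

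**Figure D1:**
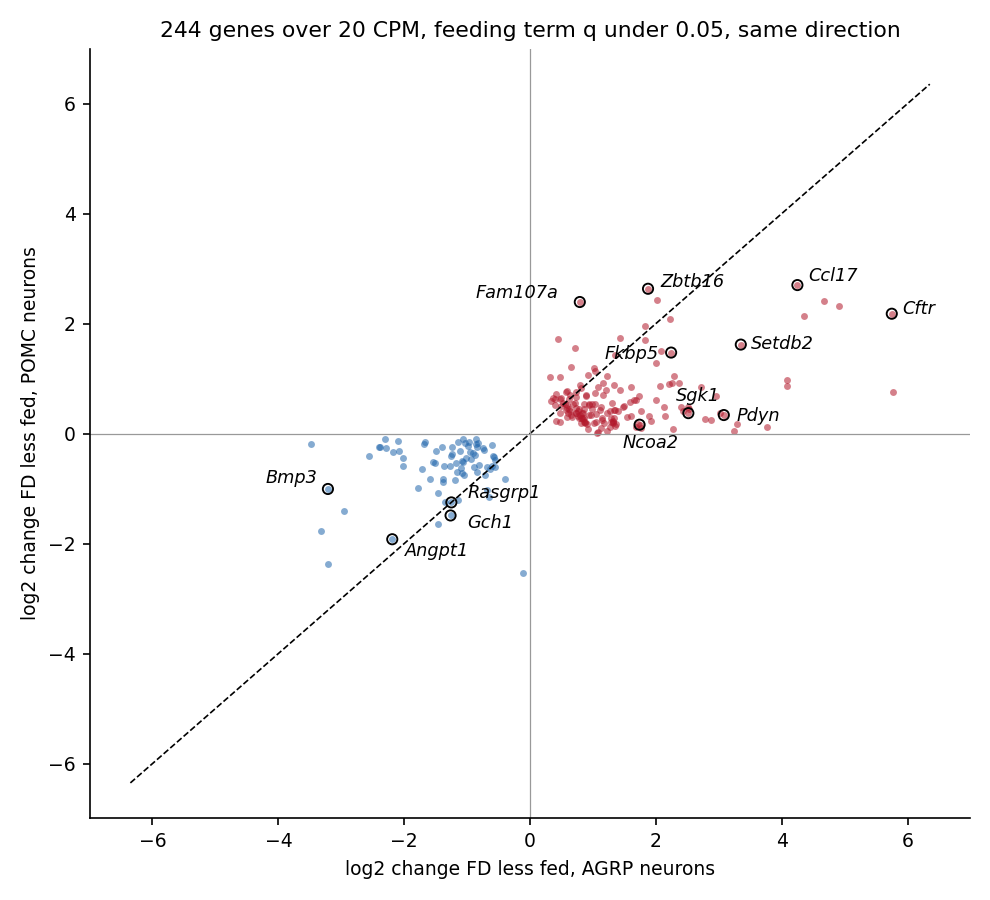
Log2 change (FD less fed) in AGRP neurons on the horizontal axis and in POMC neurons on the vertical axis, for the 244 genes of the 289 with a mean over 20 normalized CPM in at least 1 group. Red points rose, blue points fell, named genes are circled and the dashed line marks equal changes. Most points lie between the dashed line and the horizontal zero line, while *Fam107a* and *Zbtb16* lie on the POMC side of the dashed line and *Rasgrp1* on the line.

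The additive term does not ask that a gene change in each cell type by itself. In a model with the 4 groups kept apart, 242 of the 289 genes passed q under 0.05 in AGRP neurons and 12 in POMC neurons, 8 in both and 43 in neither. The background was 1700 of all genes (10.3%) for AGRP neurons (5.87% up, 4.43% down) and 62 (0.375%) for POMC neurons. At an unadjusted p under 0.05, 148 of the 289 changed in POMC neurons, where 12.2% of all genes do. The 289 genes were chosen by a test on these same counts, so an excess over the background in either cell type is built in. These shares are a description and not separate support. The size of the change differed between the cell types for 68 of the 289 (test of the interaction, q under 0.05, background 6.71%). When the larger p of the 2 cell types was adjusted over all genes, 6 genes passed (0.0363%), of which *Zbtb16* and *Rasgrp1* moved in the same direction (0.0121%) and *Dtna*, *Hrh3*, *Spred3* and *Vgf* in opposite directions. Libraries of fed and FD mice did not overlap in both cell types for 12 of the 289 genes, 7 higher and 5 lower in FD (0.0727% of all genes, 0.0424% and 0.0303%), and for 43 genes (0.26%) they did not overlap with opposite directions. Genes called in AGRP neurons had the same direction of mean change in POMC neurons in 727 of 1700 cases (42.8%), below the 47.8% over all genes, and genes called in POMC neurons had that of AGRP neurons in 25 of 62 cases (40.3%).

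*Zbtb16* (ENSMUSG00000066687, chromosome 9, 48654311 to 48835945, mm10 as for the loci below) rose in both cell types. Fed AGRP libraries held 14.8, 20.3, 21.8, 24.5 and 93.5 normalized CPM and FD AGRP libraries 102 to 170.3 (median 124). Fed POMC libraries held 5.89, 9.66, 11.2, 17.0 and 17.8 and FD POMC libraries 61.9, 72.6, 75.7, 81.7 and 90.8. Every FD library lay above every fed library of its cell type, and 1 fed AGRP library stood apart from the other 4. The common log2 change was 2.23 (SE 0.27, q = 8.99e-05), with 1.87 (SE 0.35, q = 0.000613) in AGRP and 2.63 (SE 0.38, q = 0.000222) in POMC neurons. The changes of the cell types differed by −0.76 (95% interval −1.79 to 0.28, q = 0.418), an interval that spans 0. Without the fed AGRP library that stood apart, the common log2 change was 2.64.

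*Fkbp5* (ENSMUSG00000024222, chromosome 17, 28399095 to 28517524) rose as well, with 21.1, 21.7, 29.8, 33.2 and 56.0 normalized CPM in fed and 79.1 to 217 (median 147) in FD AGRP libraries. In POMC libraries it measured 9.16, 13.4, 18.2, 20.3 and 31.7 in fed and 26.9, 35.2, 35.8, 70.2 and 89.9 in FD mice. The AGRP groups did not overlap, and in POMC neurons 1 fed library lay above the lowest FD library. The common log2 change was 1.87 (SE 0.26, q = 0.000306). It was 2.24 (SE 0.35, q = 5.54e-05) in AGRP neurons and 1.47 (SE 0.35, q = 0.0504) in POMC neurons, the latter just over the threshold. The difference between the cell types was 0.77 (95% interval −0.24 to 1.78, q = 0.393). Both *Zbtb16* and *Fkbp5* stayed called in each of the 21 fits that left out 1 library.

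**Figure D2:**
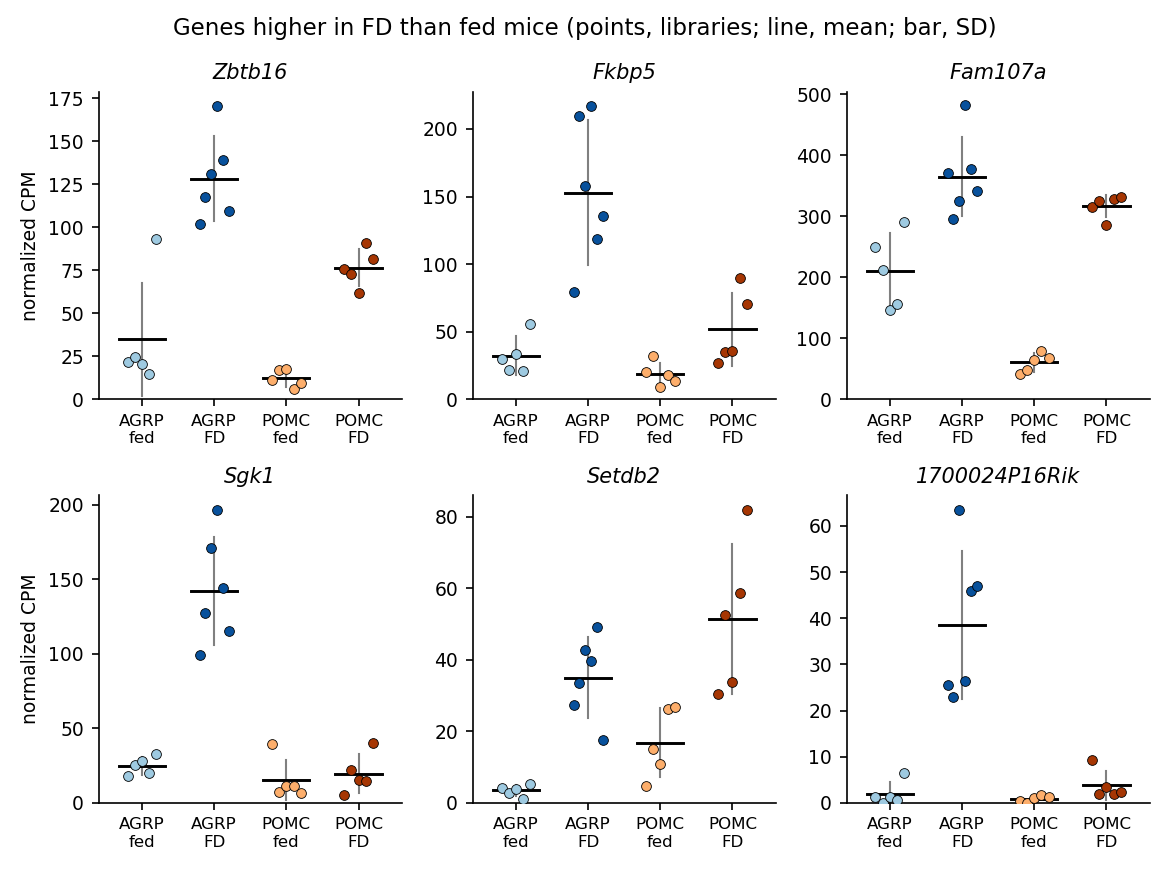
Normalized CPM (vertical axis, linear) of 6 genes that rose, in each library of the 4 groups, with the mean as a black line and the SD as a grey bar. FD libraries lie above fed libraries in both cell types for *Zbtb16*, *Fam107a*, *Setdb2* and *1700024P16Rik*, while the POMC groups of *Fkbp5* touch and those of *Sgk1* overlap.

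Genes known to respond to glucocorticoids formed a list of their own. Of 28 tested genes of this list (30 listed, *Pdk4* and *Lcn2* under the count filter), 4 rose and none fell by the common term (background 1.08% and 0.666%), 11 rose and 1 fell in AGRP neurons (5.87% and 4.43%), and 2 rose in POMC neurons (0.182%). The median log2 change over the 28 genes was 0.50 for the common term, 0.79 in AGRP and 0.15 in POMC neurons, against −0.03, −0.02 and −0.02 over all genes. Apart from *Zbtb16* and *Fkbp5* the rising members were *Fam107a* and *Sgk1*. *Zbtb16* and *Fkbp5* had been named beforehand as markers of the common change. This list and those below were chosen with earlier results of these data known. Their counts beside the background are therefore a description and not a test.

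*Fam107a* (ENSMUSG00000021750, chromosome 14, 8296274 to 8318023), which encodes a stress-induced protein that binds actin, had 146, 157, 212, 249.8 and 291 normalized CPM in fed and 295 to 482 (median 356) in FD AGRP libraries. POMC libraries held 42.1, 47.7, 64.7, 68.0 and 79.9 in fed and 286, 315, 324, 329 and 331 in FD mice. The fed and FD libraries were separate in both cell types, and the FD levels of POMC neurons came close to those of AGRP neurons. The log2 change was 2.39 (SE 0.20, q = 4.09e-09) in POMC and 0.79 (SE 0.18, q = 0.00399) in AGRP neurons, so it was larger in POMC neurons, by 1.60 (q = 0.000176). *Sgk1* (ENSMUSG00000019970, chromosome 10, 21882184 to 21999903), a kinase that regulates ion channels and transporters, had the reverse order. Its libraries held 17.8, 20.2, 25.2, 28.3 and 33.0 normalized CPM in fed and 99.1 to 196 (median 136) in FD AGRP neurons, and 6.73, 7.41, 11, 11.4 and 39.1 in fed and 5.43, 14.4, 15.4, 22.3 and 40.3 in FD POMC neurons. Its POMC groups overlapped over most of their range. The log2 change was 2.51 (SE 0.42, q = 0.000133) in AGRP and 0.37 (SE 0.41, q = 0.797) in POMC neurons, with a difference of 2.14 (95% interval 0.93 to 3.35, q = 0.0202). Without FD POMC replicate 5 the POMC change of *Sgk1* was −0.07 and the common term lost its call (q = 0.0845), and the call was lost in 12 of the 21 fits that left out 1 library.

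Other members of the list did not meet both conditions. *Bcl6*, a transcriptional repressor, measured 0.46 in AGRP and 1.51 in POMC neurons on the log2 scale (common q = 0.0997), and *Ddit4*, an inhibitor of mTORC1, measured 1.16 and 0.45 (common q = 0.137). *Dusp1*, a MAP kinase phosphatase, had 0.25 and 0.29 (common q = 0.457). *Tsc22d3*, which encodes GILZ, measured −1.96 in AGRP (q = 0.0425) and 0.27 in POMC neurons (q = 0.924), so this gene, which glucocorticoids are known to induce, was lower in FD AGRP neurons. *Cdkn1a*, *Errfi1*, *Klf9* and *Per1* rose in AGRP neurons and did not pass in POMC neurons, with log2 changes of 6.36, 2.41, 1.49 and 0.71, beside −0.40, −0.08, −0.02 and −0.06 in POMC neurons. The interaction had q = 4.44e-06 for *Cdkn1a*, 0.000185 for *Errfi1*, 0.0631 for *Klf9* and 0.159 for *Per1*. The receptor gene itself, *Nr3c1*, averaged 290.1 and 349.8 normalized CPM in fed and FD AGRP neurons and 125 and 150.4 in POMC neurons (common log2 change 0.27, q = 0.210). Of 11 genes for glucocorticoid receptors, their chaperones and cofactors, 1 rose and none fell by the common term (1.08% and 0.666% over all genes), with a median log2 change of −0.01. The member that rose was *Ncoa2*, a steroid receptor coactivator. It held 319, 329, 335, 389.7 and 495 normalized CPM in fed and 779.8 to 1556 (median 1279.5) in FD AGRP neurons, and 170.2, 204, 204, 214 and 268 in fed and 192, 227, 242, 254 and 271 in FD POMC neurons. Its log2 change was 1.74 (SE 0.17, q = 2.71e-08) in AGRP and 0.16 (SE 0.17, q = 0.778) in POMC neurons, and the difference was 1.58 (95% interval 1.09 to 2.07, q = 6.70e-05).

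**Figure D3:**
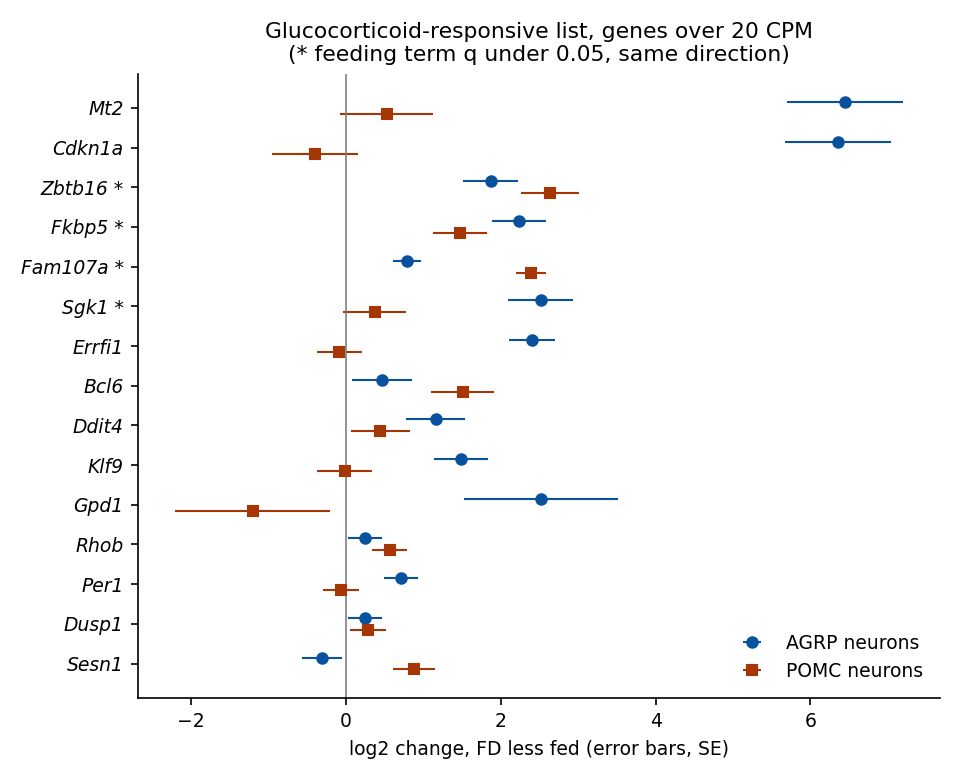
Log2 change (FD less fed, horizontal axis) with its SE in AGRP neurons (circles) and POMC neurons (squares) for the 15 genes of the glucocorticoid-responsive list with a mean over 20 normalized CPM in a group, ordered by the common change; asterisks mark the 4 genes called by the common term, of which *Zbtb16* and *Fam107a* also passed in each cell type. Both points of the 4 marked genes lie above 0, and *Mt2*, *Cdkn1a*, *Errfi1* and *Klf9* have an AGRP point well above 0 with a POMC point near or below 0.

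Promoter letters were read for the rising glucocorticoid-responsive genes *Fkbp5*, *Fam107a* and *Sgk1*, and not for *Zbtb16*, which was not matched. Only a paired site with the exact letters close to a start would be visible in them. Receptor sites with other letters, or further from a start, were not searched. Windows from 250 bases before to 50 bases after each annotated start were taken from RefSeq (GRCm38.p6), which matched 11140 of the 16513 tested genes, 138 of the 179 that rose and 83 of the 110 that fell. The paired site, AGAACA followed after 3 bases of any kind by its reverse complement TGTTCT and searched on both strands like the other motifs, was in the window of 1 of the 11140 genes (0.00898%), at the fifth of the 6 annotated starts of *Sgk1*. The hexamer AGAACA on its own, counted wherever it occurred and therefore also within the paired site, was in 15.3% of the 11140 genes, in 14 of the 138 rising genes (10.1%) and in 13 of the 83 falling genes (15.7%). In the windows shown, capitals mark the motifs found on either strand.
*Sgk1*, GRCm38.p6 chr10:21993640-21993939, plus strand: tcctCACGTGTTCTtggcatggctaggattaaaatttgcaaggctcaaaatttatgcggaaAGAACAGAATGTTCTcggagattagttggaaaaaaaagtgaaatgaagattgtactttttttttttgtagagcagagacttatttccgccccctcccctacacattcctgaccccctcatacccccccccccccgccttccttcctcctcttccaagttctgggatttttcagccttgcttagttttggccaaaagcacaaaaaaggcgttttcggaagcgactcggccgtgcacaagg
*Fkbp5*, GRCm38.p6 chr17:28486100-28486399, minus strand: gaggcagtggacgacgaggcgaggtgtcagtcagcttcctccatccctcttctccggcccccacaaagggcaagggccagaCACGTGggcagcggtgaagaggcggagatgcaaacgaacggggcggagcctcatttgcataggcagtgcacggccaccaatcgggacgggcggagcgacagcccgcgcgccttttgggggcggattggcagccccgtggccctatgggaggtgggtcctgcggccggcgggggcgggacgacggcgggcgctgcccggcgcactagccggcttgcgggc
*Fam107a*, GRCm38.p6 chr14:8309730-8310029, minus strand: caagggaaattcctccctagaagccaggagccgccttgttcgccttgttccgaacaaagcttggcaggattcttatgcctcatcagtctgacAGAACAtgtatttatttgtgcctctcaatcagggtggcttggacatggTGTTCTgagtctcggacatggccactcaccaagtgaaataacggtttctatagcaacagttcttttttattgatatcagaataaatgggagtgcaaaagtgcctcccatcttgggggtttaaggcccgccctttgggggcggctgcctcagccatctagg
In the *Sgk1* window the first run of capitals is an E-box CACGTG overlapping a hexamer, and the second run is the paired site, 189 bases before the start. The *Fkbp5* window holds an E-box 169 bases before the start and no hexamer. The second of the 3 *Fam107a* starts has 2 separate hexamers, 158 and 110 bases before it. The E-box CACGTG was in 11.3% of all genes, 11.6% of rising and 10.8% of falling genes. The cyclic AMP response element TGACGTCA was in 3.43% of all, 4.35% of rising and none of the 83 falling genes, and the FOXO site GTAAACA in 2.96%, 7.25% and 2.41%. *Pcsk1*, described below with the neuropeptides, carries both of the last 2 motifs.
*Pcsk1*, GRCm38.p6 chr13:75089607-75089906, plus strand: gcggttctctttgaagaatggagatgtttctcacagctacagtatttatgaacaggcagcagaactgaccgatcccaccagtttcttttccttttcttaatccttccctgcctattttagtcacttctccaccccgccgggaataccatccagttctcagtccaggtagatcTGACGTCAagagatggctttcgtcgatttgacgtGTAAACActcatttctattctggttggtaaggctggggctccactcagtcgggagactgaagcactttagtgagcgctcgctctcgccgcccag
These counts describe letters in the windows, and no binding was measured.

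Among genes above 20 normalized CPM in a group, the 12 rises with the largest change in the weaker cell type were *Ccl17*, *Pappa2*, *Nts*, *Cftr*, *1700024P16Rik*, *Acan*, *Spsb1*, *Zbtb16*, *Kctd12*, *B4galt1*, *Setdb2* and *Agrp*. The POMC values behind this order were at or near the floor for *Acan*, with at most 3 counts in a library, and for *Nts*, with at most 3 counts in all but 2 libraries, so their place among the 12 has no weight. Fed POMC libraries of *Spsb1* had a median of 0.0553 normalized CPM, below the floor. *Setdb2* (ENSMUSG00000071350, chromosome 14, 59402009 to 59440884), a SET-domain protein linked to histone H3 lysine 9 methylation, had 1.09, 2.75, 3.77, 4.21 and 5.36 normalized CPM in fed and 17.6 to 49.3 (median 36.6) in FD AGRP libraries. POMC libraries held 4.81, 10.8, 15.1, 26.3 and 26.8 in fed and 30.4, 33.7, 52.4, 58.7 and 82.0 in FD mice. The groups were separate in both cell types, and the common log2 change was 2.50 (SE 0.36, q = 0.000390). *Cftr*, the cyclic AMP-gated chloride channel, held 0.0949, 0.183, 0.183, 0.220 and 1.29 in fed and 6.80 to 45.5 (median 18.3) in FD AGRP libraries. In POMC libraries it held 3.11, 4.57, 4.81, 6.37 and 7.91 in fed and 5.49, 14.0, 22.3, 31.0 and 48.5 in FD mice. FD libraries lay higher in AGRP neurons without overlap, and 1 FD POMC library lay within the fed range. The common log2 change was 3.88 (SE 0.63, q = 0.00144), and it was larger in AGRP neurons, where fed levels were close to the floor, by 3.57 (95% interval 1.77 to 5.36, q = 0.00909). *1700024P16Rik*, a gene known by its clone name, went from 0.0551, 0.664, 1.16, 1.19 and 6.38 to 23.0 to 63.4 (median 36.2) in AGRP neurons and from 0, 0.442, 0.943, 1.28 and 1.65 to 1.96, 2.01, 2.32, 3.34 and 9.27 in POMC neurons, without overlap in either (common log2 change 3.31, SE 0.65, q = 0.00757). In POMC neurons alone *Setdb2*, *Cftr* and *1700024P16Rik* did not pass (q = 0.0745, 0.0905 and 0.218).

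Several of these rises were carried by genes with low levels in POMC neurons. *Agrp* held 1.52, 2.87, 2.95, 3.04 and 9.45 normalized CPM in fed and 4.15, 5.06, 13.2, 16.6 and 17.0 in FD POMC libraries, and its mean in POMC neurons was 0.488% (fed) and 0.326% (FD) of that in AGRP neurons (common log2 change 1.82, SE 0.30, q = 0.00160, and q = 0.102 in POMC neurons alone). *Npy*, which also defines AGRP neurons, averaged 5.77 and 13.3 in fed and FD POMC libraries. The part of AGRP neuron RNA in the POMC libraries was not tested. Reads had been counted without regard to strand, and the annotated loci of *Agrp* (with *Ctcf* and *Fam65a*), *Irf9* (with *Rnf31*) and *Fdft1* (with *Ctsb*) overlap other genes, so their counts are less certain than those of *Zbtb16*, *Rasgrp1*, *Gch1*, *Fam107a*, *Sgk1* and *Setdb2*, whose loci overlap none. Small or non-coding genes lie within the loci of *Fkbp5*, *Cftr*, *Spsb1*, *Kctd12*, *Hmcn1*, *Angpt1*, *Ncoa2*, *Srebf2* and *Scd2*. *Acan*, the proteoglycan aggrecan of perineuronal nets, rose in AGRP neurons from 3.90, 7.28, 7.31, 8.15 and 13.7 to 18.9 to 47.0 (median 38.9), while no POMC library had more than 3 counts, so that no change can be given there. *Ccl17*, a chemokine, averaged 2.44 ± 2.01 (SD, n = 5) in fed and 46.7 ± 26.5 (n = 6) in FD AGRP neurons, and held 0.0531, 0.333, 0.497, 1.69 and 2.36 in fed and 0, 1.65, 4.32, 5.80 and 20.4 in FD POMC libraries. *Pappa2*, a protease of insulin-like growth factor binding proteins, averaged 1.64 ± 1.15 and 41.4 ± 22 in AGRP neurons and held 0.221, 1.18, 2.00, 2.65 and 3.13 in fed and 0.381, 5.21, 5.80, 7.25 and 30.2 in FD POMC libraries. In both genes 1 FD POMC library was far above the others, and at least 1 lay within or below the fed range. Without FD POMC replicate 2 the POMC log2 change of *Ccl17* was 1.56 in place of 2.7, and without FD POMC replicate 1 that of *Pappa2* was 1.33 in place of 2.41, with the common term still called in each.

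A single library decided the direction in POMC neurons for 2 of the 12 rises. *Nts*, the neuropeptide neurotensin, held 0, 0.0531, 0.0786, 0.103 and 1.55 normalized CPM in fed and 0.0846, 0.106, 0.143, 0.295 and 8.12 in FD POMC libraries, beside 1.94 ± 2.88 (SD, n = 5) and 58.2 ± 33.5 (n = 6) in AGRP neurons. Without FD POMC replicate 5 its POMC log2 change went from 2.32 to −1.21 and the common term was not called (q = 0.215). *B4galt1*, a galactosyltransferase of the Golgi, held 1.38, 2.96, 3.13, 3.95 and 7.78 in fed and 2.25, 2.96, 4.22, 4.36 and 48.6 in FD POMC libraries, beside 7.80 ± 2.37 and 27.8 ± 14.8 in AGRP neurons. Without FD POMC replicate 1 its POMC log2 change went from 1.7 to −0.16 (common q = 0.243). The remaining rises were *Kctd12*, an auxiliary subunit of GABA-B receptors, and *Spsb1*, a SOCS box adaptor of ubiquitin ligases. *Kctd12* averaged 8.28 ± 3.65 and 29.3 ± 11.7 in AGRP and 2.11 ± 2.29 and 8.24 ± 7.37 in POMC neurons (common log2 change 1.88, SE 0.42, q = 0.0174). *Spsb1* averaged 7.99 ± 4.59 and 32.2 ± 18.1 in AGRP and 0.311 ± 0.429 and 1.81 ± 1.74 in POMC neurons (common log2 change 2.19, SE 0.53, q = 0.0279). Neither passed q under 0.05 in POMC neurons alone (0.144 and 0.166). In AGRP neurons *Kctd12* passed (q = 0.0402) and *Spsb1* did not (q = 0.0693). The common call of *Spsb1* was lost in 4 of 21 fits that left out 1 library. Mean levels were higher in AGRP than in POMC neurons for 10 of the 12 rises.

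*Rasgrp1* (ENSMUSG00000027347, chromosome 2, 117279993 to 117343001) fell in both cell types. It encodes a calcium- and diacylglycerol-regulated exchange factor that activates Ras. AGRP libraries held 580.3, 707, 739, 772 and 789 normalized CPM in fed and 206 to 426 (median 273) in FD mice. POMC libraries held 173, 256, 285, 365 and 369.6 in fed and 60.6, 103, 116, 140.0 and 189 in FD mice. The AGRP groups were separate, and the highest FD POMC library lay above the lowest fed one. The log2 change was −1.25 (SE 0.22, q = 0.000274) in AGRP and −1.25 (SE 0.23, q = 0.00659) in POMC neurons, a 2.38-fold drop in each, and the difference was 0.00 (95% interval −0.66 to 0.66). Of the 15 tested genes of ERK feedback and ETS factors, *Rasgrp1* was the only one called by the common term (0.666% of all genes fell), and 3 others passed q under 0.05 in each cell type with opposite directions.

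*Gch1* (ENSMUSG00000037580, chromosome 14, 47153895 to 47189413), GTP cyclohydrolase 1, which makes the first step to the monoamine cofactor tetrahydrobiopterin, fell from 35, 39.7, 43.4, 43.8 and 53.2 normalized CPM to 11.5 to 34.0 (median 15.1) in AGRP neurons. In POMC neurons it fell from 36.6, 64.4, 72.6, 75.2 and 92 to 15.8, 16.4, 22.4, 32.8 and 33.9. Fed and FD libraries did not overlap in either cell type, and the log2 change was −1.26 (SE 0.30, q = 0.00516) and −1.49 (SE 0.32, q = 0.0232). Of 9 tested genes of tetrahydrobiopterin and monoamine synthesis (10 listed), *Gch1* alone was called by the common term (0.666% of all genes fell), and the list's median was −0.10. *Qdpr*, which regenerates the cofactor, measured −0.68 and −0.44 on the log2 scale (common q = 0.166), and *Pcbd1*, which also takes part in its recycling, −0.65 and −0.14 (common q = 0.107).

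*Angpt1* (ENSMUSG00000022309, chromosome 15, 42424727 to 42676977), a ligand of the endothelial receptor TIE2, held 66.5, 84.4, 87.2, 101 and 137 normalized CPM in fed and 9.49 to 39.9 (median 18.9) in FD AGRP libraries. POMC libraries held 3.24, 6.53, 10.1, 10.1 and 15.4 in fed and 1.47, 1.81, 1.95, 3.01 and 3.70 in FD mice. The AGRP groups were separate and a single pair of POMC libraries overlapped. It passed in each cell type, with −2.19 (SE 0.36, q = 0.000116) in AGRP and −1.92 (SE 0.40, q = 0.0167) in POMC neurons. *Irf9*, the DNA-binding part of the interferon-activated complex ISGF3, held 24.2, 28.6, 31.0, 38.8 and 58.5 in fed and 10.2 to 15.5 (median 13.3) in FD AGRP neurons, and 21.5, 28.3, 32.4, 38.1 and 44.4 in fed and 3.14, 6.29, 7.98, 9.73 and 25.2 in FD POMC neurons. A single FD POMC library lay inside the fed range, and the common log2 change was −1.55 (SE 0.27, q = 0.00330, and q = 0.0556 in POMC neurons alone). *Cd44*, a receptor for hyaluronan, was largely a POMC neuron transcript. It held 48.4, 87.5, 104, 131 and 169 in fed and 11.2, 27.6, 29.2, 40.5 and 49.7 in FD POMC libraries, against a mean of 1.59 and 0.157 in AGRP neurons (common log2 change −2.35, SE 0.47, q = 0.00853). FD AGRP libraries had at most 8 counts, and fed AGRP replicate 2 (5.23, next 0.913) raised the fed mean, so the AGRP change lay near the floor. In POMC neurons alone the log2 change was −1.77 (SE 0.56, q = 0.147).

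**Figure D4:**
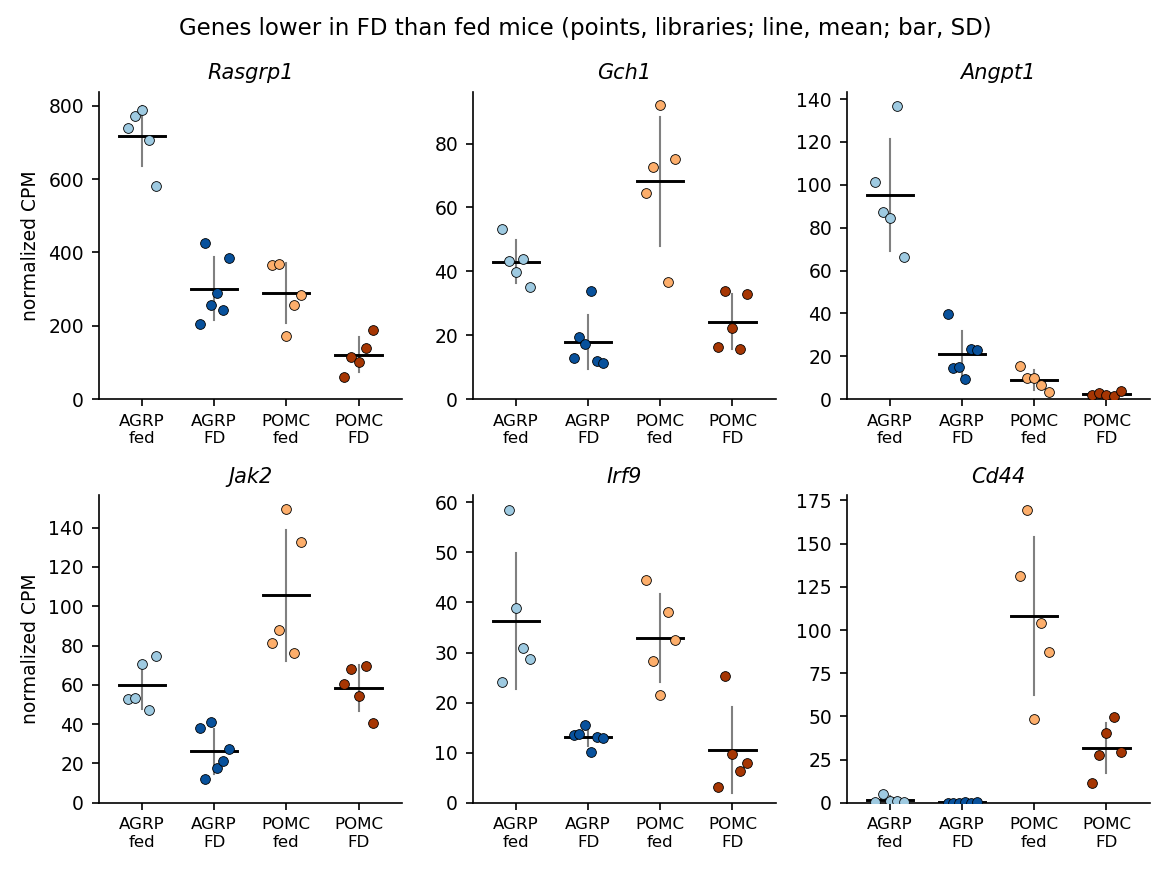
Normalized CPM (vertical axis, linear) of 6 genes that fell, in each library of the 4 groups, with the mean as a black line and the SD as a grey bar. FD libraries lie below fed libraries in both cell types for *Gch1* and *Jak2*, 1 or 2 POMC libraries overlap for *Rasgrp1*, *Angpt1*, *Irf9* and *Cd44*, and *Cd44* is near 0 in AGRP neurons.

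The other falls chosen by the same rule were *Mdga1*, *Hmcn1*, *Fam19a1*, *Fam159b*, *Sez6*, *Bmp3* and *Fgd3*, and 6 of the 12 falls had the higher level in AGRP neurons. *Mdga1*, a cell surface protein that binds neuroligins, averaged 22.7 ± 3.25 (SD, n = 5) and 2.45 ± 2.64 (n = 6) normalized CPM in fed and FD AGRP neurons and 6.20 ± 7.30 and 1.21 ± 0.924 (n = 5 each) in POMC neurons. *Bmp3*, a ligand of the bone morphogenetic protein family, fell from 57.4 ± 22.7 to 6.25 ± 5.51 in AGRP neurons and averaged 51.2 ± 19.4 and 25.4 ± 9.21 in POMC neurons (POMC q = 0.440). *Sez6*, a dendritic membrane protein, averaged 18.6 ± 6.95 and 6.73 ± 3.6 in AGRP and 60.2 ± 18.9 and 28.6 ± 9.44 in POMC neurons. The common log2 changes were −2.82, −2.17 and −1.28 in that order, with q of 0.0258, 0.0109 and 0.0125. *Fam159b* had nearly equal log2 changes of −1.14 and −1.20 in AGRP and POMC neurons (common q = 0.0207), and so had *Fam19a1*, a secreted protein gene, with −1.35 and −1.24 (common q = 0.0364). *Fam159b* passed in AGRP neurons alone (q = 0.0481) and not in POMC neurons (q = 0.170). *Fam19a1* passed in neither (q = 0.0516 and 0.266). *Hmcn1*, an extracellular matrix protein, fell in AGRP neurons from 50.9 ± 9.38 to 6.57 ± 5.15 and was at 1.37 ± 1.78 and 0.494 ± 0.593 in POMC neurons. *Fgd3*, an exchange factor for CDC42, measured −1.78 and −1.0 (common q = 0.0273). *Mdga1*, *Fam19a1*, *Hmcn1* and *Fgd3* lost the call of the common term when certain single libraries were left out (in 3, 12, 6 and 6 of 21 fits).

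Of 22 insulin and FOXO genes, 3 rose and none fell by the common term (1.08% and 0.666% over all genes), with a list median of 0.05. *Foxo1*, a transcription factor that insulin excludes from the nucleus, held 234, 247, 279.8, 355 and 481 normalized CPM in fed and 596 to 847 (median 728) in FD AGRP neurons, and 9.78, 13.8, 32.5, 32.9 and 52.2 in fed and 31.0, 40.7, 46.2, 53.2 and 56.6 in FD POMC neurons. The POMC groups overlapped (q = 0.293 in POMC neurons alone), the common log2 change was 0.94 (SE 0.21, q = 0.0170), and the cell types differed by 0.47 (95% interval −0.35 to 1.29, q = 0.555). *Pik3r1*, the regulatory subunit of phosphoinositide 3-kinase, had 1.29 (SE 0.23, q = 0.000342) in AGRP and 0.29 (SE 0.24, q = 0.690) in POMC neurons, and *Cited2*, a partner of CBP and p300, had 1.65 (SE 0.35, q = 0.00170) and 0.62 (SE 0.35, q = 0.499). The common calls of *Pik3r1* and *Cited2* were lost in 5 and 3 of 21 fits that left out 1 library. The insulin receptor gene *Insr* measured 0.04 and 0.66 on the log2 scale (common q = 0.231).

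Of 12 leptin signalling genes, *Jak2* fell and *Ptpn11* rose by the common term (0.666% and 1.08% over all genes), with a list median of −0.12. *Jak2*, the kinase bound to the leptin receptor, held 47.3, 53.0, 53.3, 70.6 and 74.7 normalized CPM in fed and 12.3 to 40.9 (median 24.3) in FD AGRP libraries. POMC libraries held 76.3, 81.2, 88.0, 133 and 149 in fed and 40.5, 54.1, 60.2, 68.1 and 69.5 in FD mice. The groups were separate in both cell types, and the common log2 change was −1.03 (SE 0.20, q = 0.00646). It was −0.85 (SE 0.28, q = 0.170) in POMC neurons alone. *Ptpn11*, which encodes the phosphatase SHP2, had a smaller common change of 0.51 (SE 0.14, q = 0.0473) and overlapping groups in both cell types, and its call was lost in 14 of 21 fits that left out 1 library. *Socs3*, a leptin-induced feedback inhibitor, measured −2.23 and −1.19 in AGRP and POMC neurons (common q = 0.107). *Lepr* measured 2.39 in AGRP and −0.69 in POMC neurons, and so lay outside the genes with a common direction.

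Sterol and fatty acid synthesis had 3 common falls and no common rise among 29 genes (0.666% and 1.08% over all genes), with a median log2 change of −0.32 against −0.03 over all genes. *Srebf2*, the transcription factor of sterol synthesis genes, held 109, 112, 145, 146 and 184 normalized CPM in fed and 61.8 to 165 (median 94.1) in FD AGRP libraries. POMC libraries held 147, 156, 167, 169 and 184 in fed and 85.4, 89.7, 92.2, 95.6 and 99.1 in FD mice. The POMC groups were separate and the AGRP groups overlapped, with log2 changes of −0.83 (SE 0.21, q = 0.0719) and −0.40 (SE 0.20, q = 0.242). *Fdft1*, squalene synthase, measured −0.75 (SE 0.17, q = 0.00398) in AGRP and −0.26 (SE 0.18, q = 0.601) in POMC neurons. *Scd2*, a fatty acid desaturase, measured −1.15 (SE 0.18, q = 5.09e-05) and −0.16 (SE 0.19, q = 0.816), with a difference of −0.99 (95% interval −1.53 to −0.45, q = 0.0164). *Hmgcs1*, which makes a precursor of mevalonate, measured −0.41 in AGRP and −0.71 in POMC neurons (common q = 0.0661). *Cyp51*, lanosterol demethylase, measured 1.15 in AGRP and −0.81 in POMC neurons. The common calls of *Srebf2*, *Fdft1* and *Scd2* were lost in 14, 13 and 5 of 21 fits that left out 1 library.

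Neuropeptide and granin genes had 4 common rises among 23 tested (25 listed, 1.08% over all genes), *Agrp*, *Nts*, *Pdyn* and *Pcsk1*, with a median of 0.49 for the common term, 1.25 in AGRP and −0.36 in POMC neurons. *Pcsk1*, the prohormone convertase that starts the processing of POMC, held 43.9, 70.0, 83.4, 86.4 and 95.6 normalized CPM in fed and 144 to 338 (median 262) in FD AGRP libraries, and 105, 116, 123, 127 and 161 in fed and 90.9, 132, 139, 155 and 165 in FD POMC libraries. *Pdyn*, prodynorphin, held 4.24, 5.46, 9.57, 9.91 and 15.5 in fed and 29.9 to 131 (median 77.5) in FD AGRP libraries, and 156, 164, 197, 221 and 232 in fed and 202, 219, 234, 235 and 336 in FD POMC libraries. FD libraries were separate and higher in AGRP neurons for both genes, and the POMC groups overlapped. The interaction was 1.58 (95% interval 0.91 to 2.25, q = 0.00190) for *Pcsk1* and 2.74 (95% interval 1.81 to 3.67, q = 0.000158) for *Pdyn*, so the common term rested mainly on AGRP neurons. The same held for *Egr1*, an immediate early transcription factor, with 1.72 (SE 0.22, q = 4.71e-06) in AGRP and 0.18 (SE 0.22, q = 0.830) in POMC neurons, the only one of 17 tested immediate early genes called by the common term (1.08% of all genes rose). *Snap25*, a neuronal SNARE protein of the marker list, measured 1.06 and 0.02 on the log2 scale (common q = 0.0462). The common calls of *Snap25*, *Nts*, *Pcsk1* and *Egr1* were lost in 12, 8, 6 and 3 of 21 fits that left out 1 library.

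No gene was called by the common term among 19 circadian clock genes, 21 of fatty acid and ketone oxidation, 16 of the ATF4 amino acid response, 8 of thyroid hormone response, 17 of autophagy and lysosome and 12 cytosolic heat shock genes. At an unadjusted p under 0.05 in edgeR these lists had, in that order, 2, 4, 2, 1, 4 and 1 members with the same direction in both cell types. DESeq2 called *Ppargc1a*, a coactivator of mitochondrial genes, *Psat1*, an enzyme of serine synthesis, and *Tfe3*, a lysosomal transcription factor, and limma-voom called the thyroid hormone receptor gene *Thrb*. *Ppargc1a* measured 0.76 and 1.01 in AGRP and POMC neurons, *Psat1* 0.98 and 0.46, *Tfe3* 1.27 and 0.39, and *Thrb* 0.65 and 0.93 (edgeR common q = 0.0987, 0.128, 0.0661 and 0.160). Of the 19 clock genes, 3 rose and 8 fell in AGRP neurons (5.87% and 4.43% over all genes), and 4 had the same direction of mean change in both cell types, where 47.8% of all genes did. *Nr1d2*, a clock repressor, passed in each cell type with opposite directions (−0.96 in AGRP, q = 0.0112, and 1.39 in POMC neurons, q = 0.00788). The heat shock list had 2 of 12 genes with the same direction in both.

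The calls rest on the assumption that most genes keep their share of the counts, and TMM factors were 1.04 to 1.11 in fed and 0.857 to 1.03 in FD AGRP libraries, beside 0.980 to 1.04 in POMC libraries. With library sizes set by ERCC spike-in counts per added volume, the median gene fell by 1.12 on the log2 scale in FD libraries, and 109 genes were called in the same direction, 2 up and 107 down, of which 41 were among the 289. The shares of calls that were higher in FD were thus 61.9% under TMM scaling and 1.83% under ERCC scaling. Within POMC neurons the spike-in set is tied to feeding state (cell-number set in fed mice alone, 10 µl set in FD mice alone). Any difference between the sets in spike-in counts per added volume therefore enters ERCC scaling and cannot be told apart from feeding state. Under ERCC scaling *Zbtb16* had a log2 change of 0.58 (q = 0.424) and *Fkbp5* 0.24 (q = 0.752), each above the median of all genes, while *Rasgrp1* had −2.48 and *Gch1* −2.52. *Ncoa2*, *Foxo1*, *Pik3r1*, *Cited2*, *Ptpn11*, *Egr1*, *Pcsk1* and *Snap25* had log2 changes below 0 under this scaling, which takes no account of the number of sorted cells. With ERCC scaling per sorted cell the median gene fell by 0.595, and of these genes only *Ptpn11* and *Snap25* stayed below 0. The sign of the change of the others thus depends on the scaling. Under TMM and both ERCC scalings their changes lay above that of the median gene. The gene just inside the threshold of the common term was *Vwa5b1* (log2 change −1.18, SE 0.32, q = 0.0498) and the one just outside was *Khdrbs3* (−0.73, SE 0.20, q = 0.0501).

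**Figure D5:**
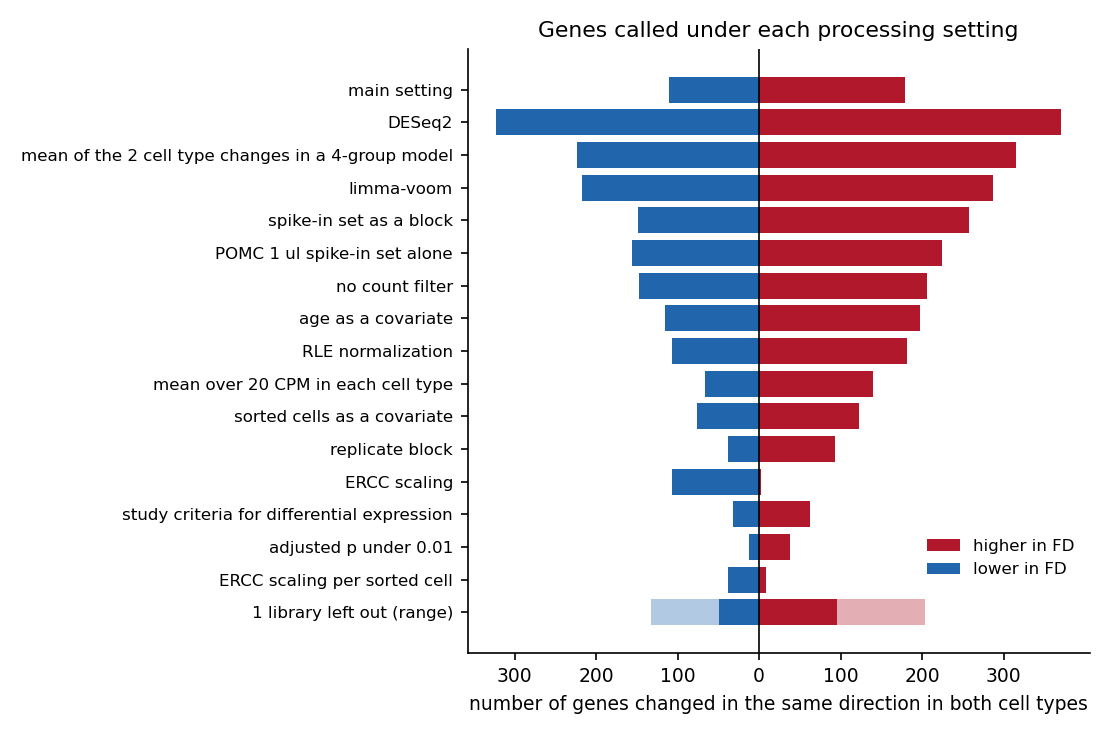
Number of genes called with the same direction in both cell types (horizontal axis), higher in FD to the right in red and lower in FD to the left in blue, under each processing setting. The pale part of the lowest bars spans the range over the 21 fits that left out 1 library. More genes rose than fell in each setting shown but the 2 that scaled libraries by spike-in counts, and the 1-library-left-out bars show ranges only.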

How the data were processed

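RNA-Seq of hand-picked AGRP and POMC neurons was taken from the deposited table of raw counts per gene (35266 genes, 92 ERCC spike-in rows and 5 summary rows). Per the study's methods and processing notes, RNA was amplified with a NuGEN Ovation kit, reads were trimmed with cutadapt 1.7.1, cleared of ribosomal, mitochondrial and low-complexity sequence with Bowtie2 2.1.0, aligned to mm10 with STAR 2.4.0i, and counted without strand by HTSeq 0.6.1p1 on Gencode VM4, which the authors deposited as counts that were not normalized. Amplification without molecular identifiers and unstranded counting limit the precision, as does a share of 24.2 to 52.1% of reads assigned to no feature. The no-feature and other summary rows and the ERCC rows stayed out of library sizes and tests.

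Genes with over 1 CPM in at least 3 of 21 libraries were kept (16513). Counts were scaled by TMM and fitted in edgeR 4.0.16 (R 4.3.3) by the quasi-likelihood test with cell type and feeding state as additive terms, as a fit over all 4 groups with 1 shared estimate of the spread. A gene was called at a Benjamini-Hochberg adjusted p (q) under 0.05 over all genes. The direction of mean change was that of the mean normalized CPM, FD less fed, in each cell type. Changes within a cell type and their difference came from a 4-group fit in edgeR (95% intervals from the t distribution with 17 residual degrees of freedom), and support in both used the larger p of the 2 cell types, adjusted over all genes. The deposited TPM values, which the authors computed from the counts and summed exon lengths, gave only the summed levels of marker lists. Fed and FD mice are separate animals. No 2 libraries agreed within sampling noise.

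Named genes were *Fkbp5* and *Zbtb16*, the 12 rises and the 12 falls with the largest change in the weaker cell type among called genes over 20 mean normalized CPM in a group, and the called members of the lists. The members and the gene lists were chosen with earlier results of these data known. DESeq2 1.42.0, limma 3.58.1 (voom), other scalings, filters, blocks and covariates, and leaving out each library were tried as alternatives. The scripts were tested on simulated counts. Promoter sequences came from RefSeq. All 21 columns were tied to a sample. Values of some genes are not reported here.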

Additional observations from a re-analysis of the deposited data

Results flagged for a closer look

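Of the 160 groups of libraries of the 40 named genes, 22 held a library far from the others of its group by Dixon's test. Chance flags about 1 group in 20 if values are normally distributed, which was not tested for normalized CPM. The flagged library was the highest of its group except for *Acan* in FD AGRP and *Scd2* in fed AGRP neurons. Groups with at most 3 counts in every library, as for *Acan* in POMC neurons, were not examined. All values here are normalized CPM, followed by the value of the nearest library. Among fed AGRP libraries, replicate 5 stood highest for *Zbtb16* (93.5, next 24.5), *Cftr* (1.29, next 0.220), *1700024P16Rik* (6.38, next 1.19) and *Pik3r1* (140.4, next 78.1) and lowest for *Scd2* (279.7, next 439), and replicate 2 stood highest for *Cd44* (5.23, next 0.913). Among FD AGRP libraries, replicate 4 stood lowest for *Acan* (18.9, next 37.1) and highest for *Gch1* (34.0, next 19.4), and replicate 1 stood highest for *Hmcn1* (16.6, next 7.29). *Gch1* of that library was still below every fed AGRP library.

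Among fed POMC libraries, replicate 1 stood highest for *Nts* (1.55, next 0.103) and *Sgk1* (39.1, next 11.4), replicate 3 for *Kctd12* (6.13, next 1.54), replicate 4 for *Hmcn1* (4.41, next 1.22) and replicate 5 for *Agrp* (9.45, next 3.04). Among FD POMC libraries, replicate 1 stood highest for *Pappa2* (30.2, next 7.25), *1700024P16Rik* (9.27, next 3.34), *B4galt1* (48.6, next 4.36) and *Hmcn1* (1.54, next 0.296), replicate 2 for *Ccl17* (20.4, next 5.80), and replicate 5 for *Nts* (8.12, next 0.295), *Fgd3* (30.0, next 11.3) and *Pdyn* (336, next 235).

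The size of the change differed between AGRP and POMC neurons for 9 named genes by the interaction test. The AGRP less POMC log2 difference was 3.57 for *Cftr* (q = 0.00909), 2.74 for *Pdyn* (q = 0.000158), 2.14 for *Sgk1* (q = 0.0202), 1.58 for *Ncoa2* (q = 6.70e-05), 1.58 for *Pcsk1* (q = 0.00190), 1.54 for *Egr1* (q = 0.00233) and 1.05 for *Snap25* (q = 0.00161). *Scd2*, which fell more in AGRP neurons, had −0.99 (q = 0.0164). *Fam107a* was the only one of the 9 with a larger change in POMC neurons, at −1.60 (q = 0.000176).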

How the results depend on the processing

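The count of 289 genes was 289 with RLE scaling, 353 without the count filter, 405 with the spike-in set as a block, 312 with age and 199 with the sorted cell number as a covariate. It was 504 by limma-voom, 694 by DESeq2, 538 when the mean of the 2 cell type changes was tested in the 4-group fit, 109 under ERCC scaling, 94 by the study's criteria for differential expression and 50 at q under 0.01. Chosen after seeing the data, ERCC scaling per sorted cell gave 46 (8 up, 38 down) and the POMC 1 µl set alone 380, and requiring over 20 CPM in each cell type kept 207. Leaving out 1 library gave 147 to 327 genes, and 152, 171, 176, 147 and 185 without fed AGRP replicates 1 to 5, each under the main count by more than 1.5 times. The 2 genes supported in both cell types became 11 by DESeq2, 4 without the filter, 1 with the sorted-cell covariate and in the POMC 1 µl set, 0 under either ERCC scaling, and 0 to 3 with 1 library left out. Of the 40 named genes, 23 were called in each of the 21 fits with 1 library left out and 17 were lost in at least 1. Under ERCC scaling, log2 changes below 0 were found for *Ncoa2* (−0.20), *Foxo1* (−0.12), *Pik3r1* (−0.50), *Cited2* (−0.31), *Ptpn11* (−0.68), *Egr1* (−0.34), *Pcsk1* (−0.38) and *Snap25* (−0.59), and per sorted cell for *Ptpn11* (−0.10) and *Snap25* (−0.027). The cause was not tested, and which scaling fits these cells cannot be told from the counts.

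Replicate numbers did not pair the samples. Over 30 pairs with the same number the deviations from group means correlated at −0.169 to 0.110 (median −0.019), 2 over 0.1. No library with a same-numbered partner correlated best with its own number in every other group, and FD AGRP replicate 6 had no such partner. With a replicate block the count was 131 (93 up, 38 down), 124 of them among the 289, and 24 of the 40 named genes stayed called.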

Other observations

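Values of 8 further genes called by the common term, chosen after their values were seen, are given here for each cell type. Fed and FD libraries did not overlap in either cell type for 3 of them. *Stk32b*, a kinase gene, averaged 31.9 and 86.1 normalized CPM in fed and FD AGRP neurons (log2 change 1.43, q = 0.00237) and 2.43 and 8.06 in POMC neurons (1.73, q = 0.00788), and so passed in each. *Lancl3* averaged 76.7 and 373 normalized CPM in fed and FD AGRP neurons (log2 change 2.28, q = 1.37e-05) and 50.8 and 105 in POMC neurons (1.05, q = 0.131). *Abhd2*, a lipid hydrolase, averaged 65.9 and 102 normalized CPM in fed and FD AGRP neurons (log2 change 0.63, q = 0.0202) and 95.3 and 156 in POMC neurons (0.71, q = 0.0756). The last 2 passed in AGRP neurons and not in POMC neurons.

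The other 5 passed in AGRP neurons and missed the threshold in POMC neurons. *Itpr1*, the inositol trisphosphate receptor, averaged 215 and 356 normalized CPM in fed and FD AGRP neurons (log2 change 0.73, q = 0.0125) and 234 and 395 in POMC neurons (0.76, q = 0.0782). *Prkacb*, a catalytic subunit of protein kinase A, averaged 1009 and 1413 normalized CPM in fed and FD AGRP neurons (log2 change 0.49, q = 0.0158) and 1129 and 1606 in POMC neurons (0.51, q = 0.0885). *Tfrc*, the transferrin receptor, averaged 120.3 and 222 normalized CPM in fed and FD AGRP neurons (log2 change 0.88, q = 0.0143) and 91.4 and 146 in POMC neurons (0.68, q = 0.211). *Kcnb2*, a potassium channel subunit, averaged 141 and 46.5 normalized CPM in fed and FD AGRP neurons (log2 change −1.60, q = 4.79e-05) and 95.4 and 53.7 in POMC neurons (−0.83, q = 0.140). *Stat2*, which binds IRF9, averaged 34.0 and 8.36 normalized CPM in fed and FD AGRP neurons (log2 change −2.02, q = 0.00112) and 17.5 and 11.6 in POMC neurons (−0.59, q = 0.616).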
